A study of Mus musculus with 16 samples.

Results

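The loci of 35 genes were examined by ATAC-seq, in which a transposase cuts accessible DNA, in pancreatic cancer cells sorted from tumors in the pancreas, the liver and the lungs of mice. The genes were 15 integrin alpha subunits, 8 integrin beta subunits, 10 laminin chains and both nidogens. A peak was assigned to one of these genes when, among all protein-coding start sites within 100 kb of the peak's midpoint, a start site of that gene was the nearest. This gave 344 of 136630 nuclear peaks, between 1 peak (Itga10, Itgal and Lama1) and 26 peaks (Itgb1 and Itgb6) per gene. Nearness to a start site does not show that a peak acts on that gene, and no RNA was examined here, so every value is accessibility and not expression.

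All cells were KC-shSmad4 cells. They derive from mice with Ptf1a-Cre, which acts in pancreatic epithelium, a Cre-dependent rtTA3 transactivator with the fluorescent protein mKate2, and a hairpin RNA against Smad4 that doxycycline switches on. Smad4 is therefore off in mice fed doxycycline, and its endogenous gene is expressed again once the drug is withdrawn. Passaged tumor-derived lines carrying luciferase were injected into the pancreas, into the spleen followed by its removal (liver metastases) or into the tail vein (lung metastases) of female Foxn1nu nude mice, hosts without mature T cells that were 6 to 8 weeks old by the study's methods. The groups were Panc Smad4 off, Panc Smad4 restored, Lung Smad4 off and Lung Smad4 restored with n = 3 mice each, and Liv Smad4 off and Liv Smad4 restored with n = 2 mice each. Restoration lasted 14 days. It began 4 weeks after injection for pancreas tumors, 5 weeks for liver and 6 weeks for lung metastases, so organ, injection route and time of growth cannot be told apart. The labels do not say which line or hairpin went into which mouse. Accessibility does not report the knockdown of Smad4.

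Integrins are cell-surface receptors made of 1 alpha and 1 beta subunit that bind the extracellular matrix or other cells and couple them to the actin or keratin cytoskeleton. Laminins are trimers of an alpha, a beta and a gamma chain that form the sheet of epithelial, endothelial and muscle basement membranes, and nidogens link that sheet to collagen IV. In epithelia, laminin-332, with alpha and beta chains encoded by Lama3 and Lamb3, anchors cells through integrins alpha6-beta4 and alpha3-beta1, whereas alphav and beta3 integrins and the collagen receptor alpha11-beta1 are better known from mesenchymal, endothelial or invading cells.

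Each sample held between 22495044 and 37510981 reads in nuclear peaks, of which 66539 to 116245 fell in the 344 peaks, with a median of 39.5 to 106.5 reads per peak. Libraries of a group differed by a chi-square per degree of freedom of 3.68 or more over peaks, so no library was a copy of another in its group. Libraries of different groups were not compared in this way. Panc restored mouse 3 (14.0 and 20.3 against its group) and Lung Smad4 off mouse 1 (16.3 and 17.9) stood apart, and the main results that rest on them are given with and without them. The labelled tumor epithelium was seen at its markers. Peaks covered start sites of 6 of 6 epithelial marker genes, and their summed normalized count was 16704 to 19445 in Panc, 42853 to 45452 in Liv and 18521 to 27801 in Lung with Smad4 off. Of the markers of other cells, 2 of 8 leukocyte genes, 2 of 6 hepatocyte genes, 1 of 6 lung epithelial genes, 1 of 6 acinar genes, 2 of 5 endothelial genes and 4 of 5 fibroblast genes had a peak over a start site. The leukocyte markers Ptprc and Cd3e, the hepatocyte marker Alb, the lung marker Sftpc and the endothelial marker Pecam1 had none. Fibroblast markers summed to 1699 to 2241 in Panc, 794 to 816 in Liv and 832 to 1527 in Lung with Smad4 off. Hepatocyte markers summed to 1009 to 1172 in Liv and to 543 or less in Panc and Lung with Smad4 off. Endothelial markers summed to 712 in Lung Smad4 off mouse 1 and to 146 or less in every other sample. The part of such cells in the results was not tested. In bulk samples a smaller share of cells with an open site and less opening per cell cannot be told apart.

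Central 300 bases of 6 peaks are shown because the results turn on them. The first 3 belong to peaks that separate liver from lung metastases (Nid2, higher in liver, and Itga11 and Itgb3, lower in liver), the next to a Nid2 intron peak that was low in both metastatic sites, and the last 2 to peaks that moved with Smad4 (Itgb1 and Lamb1). The last 3 windows were chosen after their values were seen. Sequence is the plus strand of GRCm38.p6 (mm10). Capitals mark TGAGTCA, a match to the AP-1 letters TGANTCA, and GGAATG, the letters searched for TEAD.
Nid2 promoter, chr14:19750809-19751108: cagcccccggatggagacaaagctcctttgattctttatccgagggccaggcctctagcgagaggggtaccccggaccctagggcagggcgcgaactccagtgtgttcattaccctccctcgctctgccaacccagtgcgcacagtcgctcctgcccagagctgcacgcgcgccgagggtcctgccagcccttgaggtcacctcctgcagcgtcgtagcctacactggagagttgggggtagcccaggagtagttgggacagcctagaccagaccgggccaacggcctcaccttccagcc
Itga11 upstream, chr9:62624710-62625009: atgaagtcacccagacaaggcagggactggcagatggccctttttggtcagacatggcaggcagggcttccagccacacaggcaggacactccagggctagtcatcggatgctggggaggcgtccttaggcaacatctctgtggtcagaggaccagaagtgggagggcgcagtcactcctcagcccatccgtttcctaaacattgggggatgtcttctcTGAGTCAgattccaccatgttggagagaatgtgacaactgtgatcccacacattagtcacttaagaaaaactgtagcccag
Itgb3 upstream, chr11:104604341-104604640: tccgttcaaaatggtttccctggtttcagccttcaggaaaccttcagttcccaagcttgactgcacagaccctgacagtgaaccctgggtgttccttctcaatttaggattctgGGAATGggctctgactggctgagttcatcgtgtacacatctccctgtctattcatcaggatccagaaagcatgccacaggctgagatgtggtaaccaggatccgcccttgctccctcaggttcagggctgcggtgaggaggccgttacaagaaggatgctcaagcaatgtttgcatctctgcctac
Nid2 intron, chr14:19786151-19786450: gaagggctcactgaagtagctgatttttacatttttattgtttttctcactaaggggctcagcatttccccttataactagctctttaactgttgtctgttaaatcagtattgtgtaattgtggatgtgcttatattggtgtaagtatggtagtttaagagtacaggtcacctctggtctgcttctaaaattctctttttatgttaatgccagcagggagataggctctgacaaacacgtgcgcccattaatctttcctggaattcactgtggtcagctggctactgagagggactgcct
Itgb1 upstream, chr8:128666795-128667094: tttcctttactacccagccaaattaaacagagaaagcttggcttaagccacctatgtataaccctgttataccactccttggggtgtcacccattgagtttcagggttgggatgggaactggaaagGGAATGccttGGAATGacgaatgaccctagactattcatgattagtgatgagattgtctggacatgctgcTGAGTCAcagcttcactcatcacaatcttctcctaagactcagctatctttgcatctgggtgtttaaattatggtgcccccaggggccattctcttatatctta
Lamb1 upstream, chr12:31255978-31256277: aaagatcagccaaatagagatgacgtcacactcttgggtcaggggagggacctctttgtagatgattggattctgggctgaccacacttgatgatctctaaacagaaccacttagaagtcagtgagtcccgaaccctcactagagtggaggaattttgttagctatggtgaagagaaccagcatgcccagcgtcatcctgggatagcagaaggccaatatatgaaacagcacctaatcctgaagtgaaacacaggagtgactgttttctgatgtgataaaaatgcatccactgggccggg

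Of all 136630 peaks, 34.1% held the AP-1 letters in their central 300 bases and 20.1% held the TEAD letters, on either strand. Neither Nid2 window nor the Lamb1 window held any of the motifs searched, which says only that those letters are not in the window. The other letters searched on both strands were GGGNGTGG for KLF, TGTGGTT for RUNX, TGTTTAC for FOX, CCGGAAG for ETS, TTAATNATT for HNF1, CAAAGTCC for HNF4, and GTCTAGAC or CAGACAG for SMAD. None of these letter strings is contained in another.

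With Smad4 off, accessibility at these loci differed between organs in both directions. A call needed a log2 fold change of 0.58 or more in size and an adjusted p no higher than 0.1 (limma, Benjamini-Hochberg over all 136630 peaks or all 17816 protein-coding loci with a peak). Between liver and lung metastases, 73 of the 344 peaks were higher in the liver and 83 lower, where 22.9% of all peaks were higher and 26.8% lower. Between liver metastases and pancreas tumors, 84 were higher and 132 lower in the liver, against 26.2% and 32.3% of all peaks. Between lung metastases and pancreas tumors, 16 were higher and 54 lower in the lungs, against 6.59% and 10.7%. The median log2 fold change of the 344 peaks was -0.03, -0.14 and -0.03 in these comparisons, and that of all peaks was 0.00, -0.05 and 0.03. In lungs against pancreas the lower peaks made up a larger share of the 344 than of all peaks, a difference that was not tested. The rest of the account concerns which genes held the called peaks. The 3 comparisons share groups and are given side by side.

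**Figure D1:**
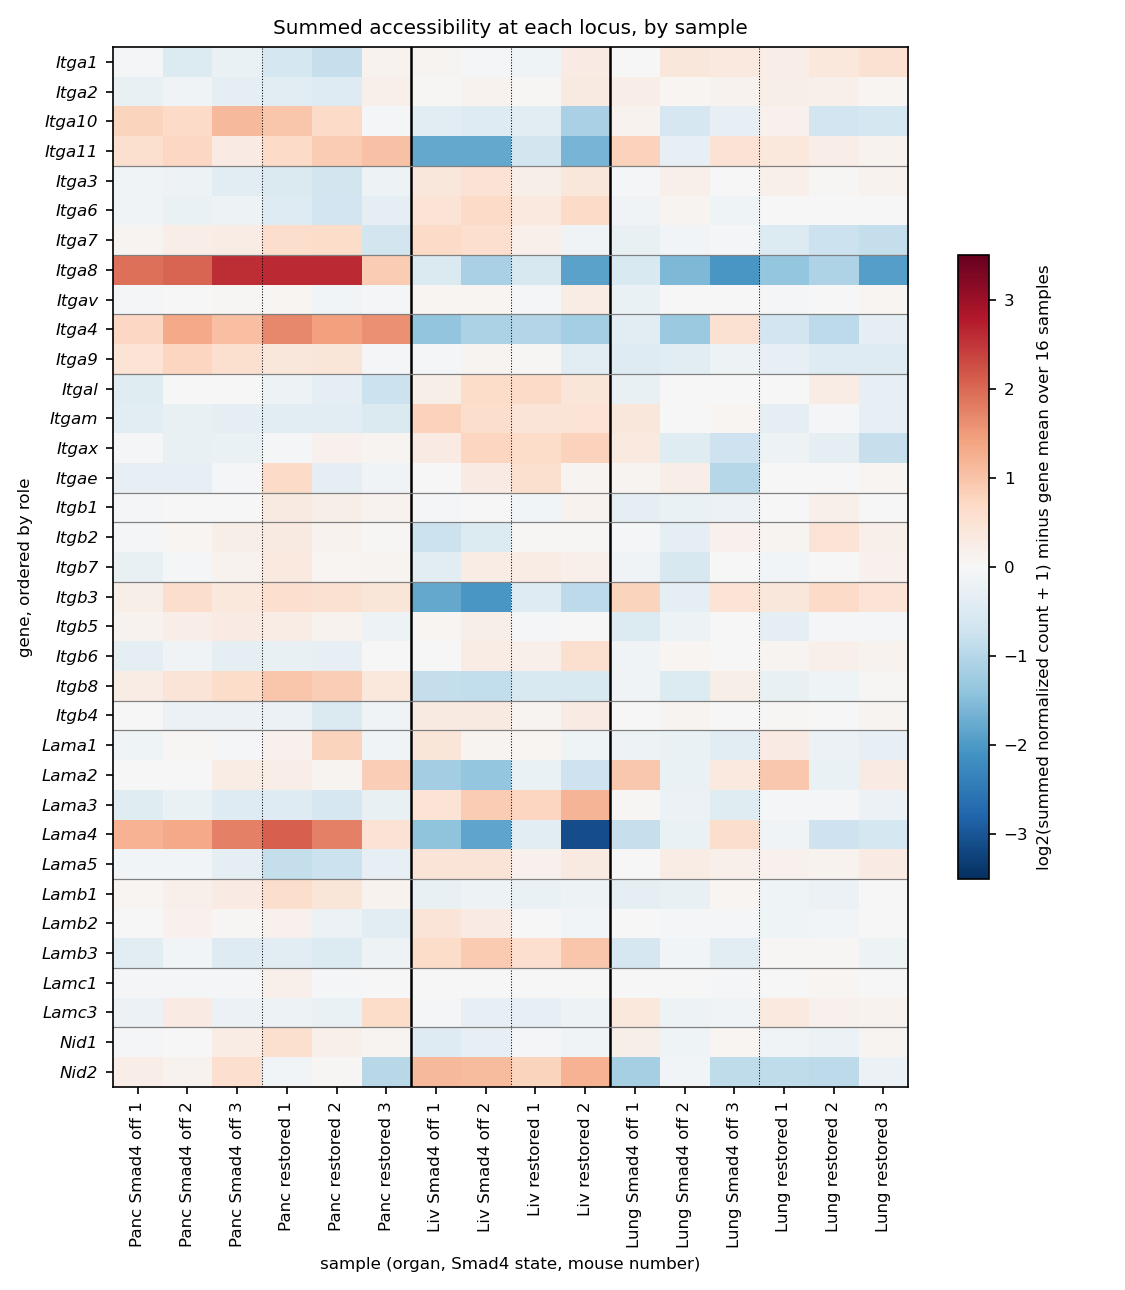
Summed accessibility at the 35 loci in each of the 16 samples, as log2(summed normalized count + 1) minus the mean of the gene over all samples (color scale); rows are genes ordered by role and columns are mice by organ and Smad4 state. The liver columns are pale to dark blue at Itgb3, Itga11, Itgb8 and Lama2 and red at Lama3, Lamb3, Itga6 and Nid2, and Itga8, Itga4 and Lama4 are deepest red in the pancreas columns, where Panc restored mouse 3 is paler at Itga8 and Lama4.

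The direction was often mixed within a gene. Between liver and lung metastases 17 of the 35 genes held peaks called in both directions, 8 held only higher peaks, 6 only lower peaks and 4 none. This count was not made over all genes. With 22.9% of all peaks higher and 26.8% lower, the mix is not shown to be particular to these genes. The single value used per gene was the sum of the normalized counts over its peaks (its locus value), which leans toward the strongest peaks. By this value 6 loci were higher and 6 lower in liver than lung metastases (20.4% and 11.8% of all loci), 8 were higher and 9 lower in liver metastases than pancreas tumors (23.8% and 13.0%), and 0 were higher and 6 lower in lung metastases than pancreas tumors (2.53% and 3.23%). The median locus of the genome was 0.30 higher on the log2 scale in the liver than in either other organ under the deposited scaling. With the quasi-likelihood test of edgeR and its own scaling this median was 0.01 and 0.02, and the split became 3 higher and 8 lower against the lungs and 3 higher and 12 lower against the pancreas.

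**Figure D2:**
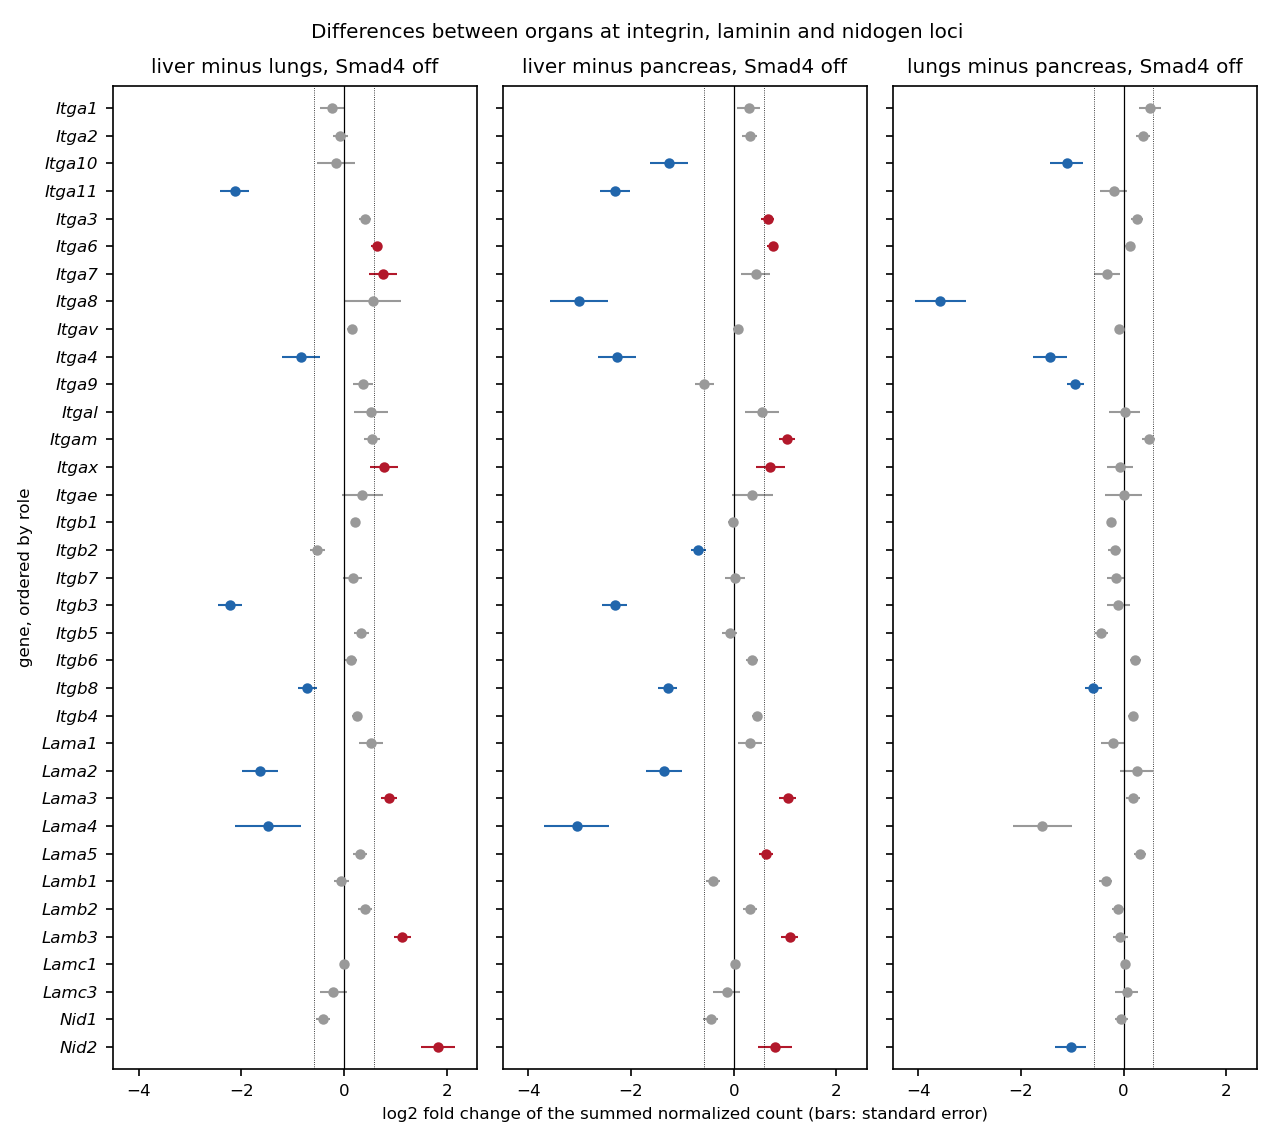
Log2 fold change of each of the 35 loci between organs with Smad4 off (points, with bars of 1 SE from the limma fit): liver minus lungs, liver minus pancreas and lungs minus pancreas. Red loci were called higher, blue loci lower and gray loci not called, dotted lines mark 0.58 on either side of 0, and Itgb3, Itga11, Itga8, Itga4 and Lama4 reach past -2 in at least 1 panel while no locus passes 2 on the positive side.

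Among the laminin alpha chains, the epithelial chain Lama3 and the mesenchymal and vascular chain Lama4 moved apart. The Lama3 locus (20 peaks) summed to 2820 and 3732 normalized counts in Liv, to 2076, 1753 and 1509 in Lung and to 1507, 1726 and 1466 in Panc with Smad4 off. Both liver mice lay above every lung and pancreas mouse. The log2 fold change was 0.88 ± 0.16 (SE) against the lungs (adjusted p = 0.000542) and 1.05 ± 0.16 against the pancreas (adjusted p = 0.000101). The peak over a Lama3 start site (chr18:12502708-12504742) held 1321 and 1817 counts in Liv, 221, 394 and 269 in Lung and 310, 458 and 280 in Panc, a log2 fold change of 2.43 ± 0.27 against the lungs (adjusted p = 2.31e-05). The gene was not uniform. An intron peak 6186 bp upstream of the nearest start site (chr18:12497692-12498334) was higher in liver than lung metastases by 2.64 ± 0.35, while a peak over an exon 47440 bp upstream of that start site (chr18:12456433-12457086) was lower by 3.14 on the log2 scale (SE 0.58), with 13.6 and 12.5 counts in Liv and 353, 66.3 and 78.4 in Lung. Without Lung Smad4 off mouse 1, the highest of these, the latter difference was -2.38 (adjusted p = 0.00099).

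Lama4 (9 peaks) was a locus of the pancreas tumors. Its summed count was 997, 1072 and 1436 in Panc, 159 and 118 in Liv and 243, 360 and 647 in Lung with Smad4 off. Every pancreas mouse lay above every metastasis, and the lung mice above the liver mice. The log2 fold change was -3.06 ± 0.64 for liver against pancreas (8.35-fold lower, adjusted p = 0.0012), where 9 of its 9 peaks were lower. Against the lungs it was -1.48 ± 0.64 (adjusted p = 0.0611), a call lost without Lung Smad4 off mouse 3 (-1.10, adjusted p = 0.174) and without mouse 2 (-1.52, adjusted p = 0.109). Lungs against pancreas gave -1.58 (adjusted p = 0.126) and no call. An upstream peak (chr10:38908154-38909782) held 187, 209 and 393 counts in Panc, 28.4 and 12.5 in Liv and 9.20, 9.78 and 21.5 in Lung. Lama2, the chain of muscle and nerve basement membranes, summed to 122 and 110 in Liv, 548, 240 and 356 in Lung and 282, 281 and 341 in Panc. Its liver values lay below all others, by -1.63 ± 0.35 against the lungs (adjusted p = 0.00167, and -1.33 without Lung Smad4 off mouse 1), but peaks within 20 kb of the start site alone gave -0.85 (adjusted p = 0.156). Lama5, the widely expressed alpha chain of adult basement membranes, was called only against the pancreas (0.63 ± 0.14, adjusted p = 0.00144), a call lost with edgeR (0.35). Lama1, the embryonic chain, had 1 peak and no call.

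Among the beta and gamma chains, Lamb3 followed Lama3. The Lamb3 locus (11 peaks) summed to 3649 and 4334 in Liv, 1533, 2155 and 1762 in Lung and 1788, 2158 and 1706 in Panc with Smad4 off. The liver mice lay above all others, and lung and pancreas mice overlapped. The difference was 2.21-fold against the lungs (log2 1.14 ± 0.16, adjusted p = 9.47e-05) and 2.12-fold against the pancreas (1.09 ± 0.16, adjusted p = 6.81e-05), and it was called under every alternative tried at thresholds of 0.58 and 0.1, with 0.85 and 0.80 by edgeR. At the Lamb3 start site (chr1:193299980-193303603) counts were 2015 and 2590 in Liv, 462, 845 and 587 in Lung and 576, 804 and 572 in Panc. Lamc1, the gamma chain shared by most laminins, was level, with 7725 and 7833 in Liv, 7937, 7930 and 7503 in Lung and 7625, 7686 and 7684 in Panc. Its log2 fold change of liver against lungs was 0.00 ± 0.07, so a shift of the size called elsewhere lay far outside the error, although the sum held 1 higher and 3 lower peaks of 13. Lamb1, the beta chain of most non-epidermal laminins, was -0.40 ± 0.14 against the pancreas and not called, but 1 of its intron peaks (chr12:31299247-31300315) held 124, 138 and 220 counts in Panc, 17.3 and 6.97 in Liv and 9.20, 15.2 and 11.2 in Lung (liver against pancreas -3.70 ± 0.64, adjusted p = 0.000212). Lamb2 (0.41 ± 0.13 against the lungs) and Lamc3 (-0.21 ± 0.26), chains of vascular and neural membranes, had no locus call.

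The nidogens differed from each other. Nid2 (8 peaks) summed to 2007 and 1998 in Liv, 415, 863 and 494 in Lung and 1092, 1001 and 1382 in Panc with Smad4 off, so that the groups did not overlap and stood in the order liver, pancreas, lungs. The liver was 3.56-fold above the lungs (log2 1.83 ± 0.33, adjusted p = 0.000585, and 1.62 without Lung Smad4 off mouse 1). The steps between neighbors in that order were less firm. Liver against pancreas gave 0.80 ± 0.33 (adjusted p = 0.0483) and was not called with either liver mouse left out (adjusted p = 0.137 and 0.149), and lungs against pancreas gave -1.03 ± 0.30 (adjusted p = 0.0617) and was lost in 5 of the fits that left out a mouse. The promoter peak shown above (chr14:19750460-19751456) held 389 and 425 counts in Liv, 59.8, 176 and 94.8 in Lung and 160, 163 and 279 in Panc. The intron peak (chr14:19785893-19786707) behaved differently, with 126, 133 and 229 counts in Panc, 13.6 and 19.5 in Liv and 10.1, 2.17 and 2.58 in Lung (lungs against pancreas -4.97 ± 0.55, adjusted p = 0.000227). Nid1 had 1 higher and 4 lower peaks of 11 in liver against lungs and no locus call (-0.41 ± 0.14).

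**Figure D3:**
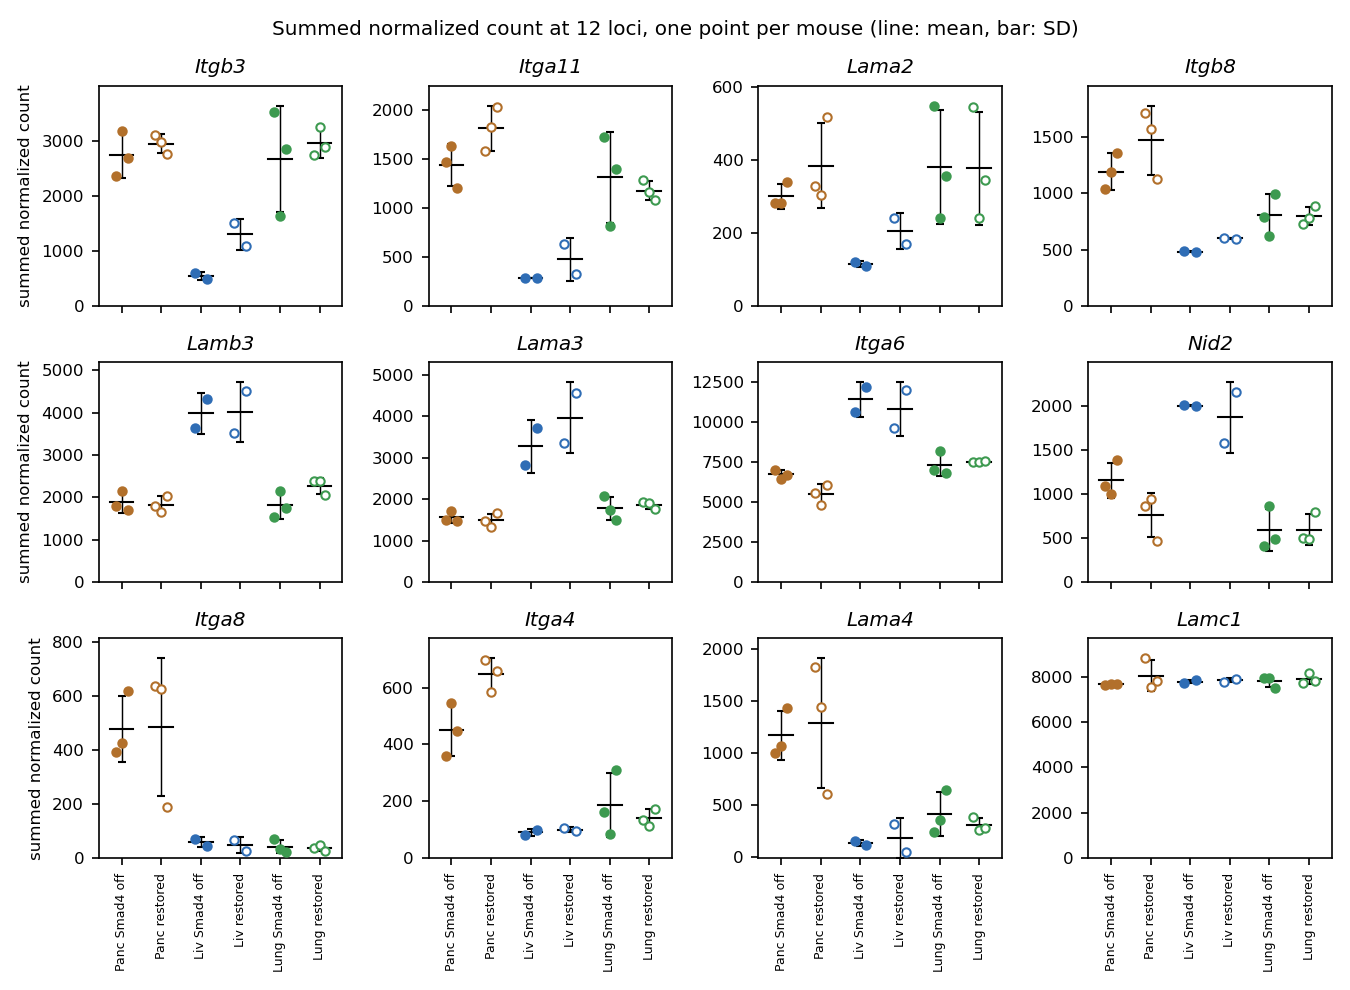
Summed normalized count at 12 loci, one point per mouse, filled for Smad4 off and open for Smad4 restored, with the mean (line) and SD (bar) of each group of 2 or 3 mice; each panel has its own axis. With Smad4 off the liver points lie lowest at Itgb3, Itga11, Lama2 and Itgb8 and highest at Lamb3, Lama3, Itga6 and Nid2, the pancreas points highest at Itga8, Itga4 and Lama4, and Lamc1 is level between 7503 and 8814.

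Of the integrin subunits that bind laminins, Itga6 was higher in the liver. Itga6, whose product pairs with beta4 in hemidesmosomes, summed over 23 peaks to 10642 and 12162 in Liv, 7014, 8177 and 6820 in Lung and 6993, 6461 and 6688 in Panc with Smad4 off. Both liver mice lay above all others. The log2 fold change of 0.64 ± 0.11 against the lungs (adjusted p = 0.000466) fell under the fold threshold with edgeR (0.35, adjusted p = 0.0107), TMM factors (0.57) and quantile normalization (0.32). Itga3, the other epithelial laminin receptor subunit, was called against the pancreas (0.66 ± 0.12, adjusted p = 0.000433) and not against the lungs (0.41 ± 0.12), and its start-site peak was called against both (0.76 ± 0.12 and 0.98 ± 0.12). The Itga3 locus values stand beside a median locus that was 0.30 higher in the liver under the deposited scaling. Itgb4, the hemidesmosomal beta subunit, had no locus call (0.26 ± 0.10 and 0.45 ± 0.10), whereas the peak at its start site (chr11:115973426-115976836) was higher in the liver, at 2315 and 2424 counts against 1462, 1637 and 1461 in Lung and 1377, 1256 and 1233 in Panc. Itga7, a laminin receptor subunit of muscle, was called against the lungs (0.76 ± 0.28, adjusted p = 0.0331) and lost that call with edgeR (0.47). Together the 36 peaks of Itga3, Itga6 and Itga7 held 11 higher and 4 lower peaks in liver against lungs, with a median log2 fold change of 0.16. Of all peaks 22.9% were higher and 26.8% lower. Itga6 alone held 7 of the 11 higher and all 4 of the lower peaks. The marker peaks of tumor epithelium were higher in the liver than in both other organs at 6 of 6 peaks, and their part in the values of Lama3, Lamb3 and Itga6 was not tested.

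Itgb1, the partner of most of these alpha subunits, kept nearly the same sum in every organ (4868 and 5091 in Liv, 4098, 4324 and 4383 in Lung, 4974, 5050 and 5090 in Panc) while 6 of its 26 peaks were higher and 3 lower in liver than lung metastases. The locus value depended on the region around it. With the median level of other peaks within 1 Mb removed, liver against pancreas moved from -0.02 to 0.77 on the log2 scale.

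Itgb3 was the gene with every peak called lower in the liver than in both other organs. It encodes the beta subunit that pairs with alphav and, in platelets, with alphaIIb. All 14 of its peaks were lower in liver metastases than in lung metastases, and all 14 lower than in pancreas tumors. The locus summed to 599 and 497 in Liv, 3521, 1634 and 2856 in Lung and 2361, 3182 and 2679 in Panc with Smad4 off. Each liver mouse lay below every other mouse, while lungs and pancreas overlapped and differed by -0.10 (adjusted p = 0.842). The liver was 4.65-fold below the lungs (log2 -2.22 ± 0.24, adjusted p = 4.18e-05) and 4.98-fold below the pancreas (-2.32 ± 0.24, adjusted p = 1.34e-05), and the values without Lung Smad4 off mouse 1, the highest of its group, and with the level of the surrounding 1 Mb removed were -1.98 and -2.10 against the lungs. The start-site peak (chr11:104607539-104608558) took part, with 156 and 125 counts in Liv, 531, 265 and 430 in Lung and 405, 497 and 388 in Panc. The upstream peak shown above (chr11:104604007-104604973) fell furthest relative to the lungs, at 9.87 and 16.7 counts in Liv against 192, 89.1 and 99.1 in Lung (-3.12 ± 0.35, adjusted p = 2.49e-05, and -2.77 without Lung Smad4 off mouse 1).

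The other partners of alphav were mixed. Itgb8, a receptor subunit that activates latent TGFβ, had 5 of 16 peaks lower and 0 higher in liver against lungs, and 12 lower and 0 higher against the pancreas. Its sum of 485 and 481 in Liv, 791, 624 and 997 in Lung and 1033, 1186 and 1356 in Panc placed liver, lungs and pancreas in rising order without overlap, with liver against pancreas at -1.29 ± 0.19 (adjusted p = 8.36e-05). With the level of the surrounding 1 Mb removed that value was -0.40 and was no longer called. Itgb6, the epithelial alphav partner that also activates TGFβ, had 9 higher and 9 lower peaks of 26 in liver against lungs and no locus call (0.13 ± 0.12). Its promoter peak (chr2:60672759-60673947) was high only in the liver, at 273 and 365 counts against 66.3, 103 and 68.1 in Lung and 58.9, 96.5 and 63.9 in Panc (2.01 ± 0.34 against the lungs, adjusted p = 0.000321). Itgb5 (21 peaks) had 7 higher and 2 lower peaks in liver against lungs, and an intron peak (chr16:33921304-33923377) that held 508, 611 and 883 counts in Panc, 67.9 and 36.2 in Liv and 171, 46.7 and 202 in Lung. A second peak assigned to Itgb5 by distance (chr16:33811972-33814509) lies inside Muc13 and was higher in the liver (270 and 270 counts, against 27.3, 33.1 and 38.9 in Panc). Itgav itself, the shared alpha subunit, was level at 8279 and 8173 in Liv, 6710, 7713 and 7731 in Lung and 7484, 7830 and 8089 in Panc (0.16 ± 0.10 against the lungs). It nonetheless held 1 higher and 6 lower peaks of 17.

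**Figure D4:**
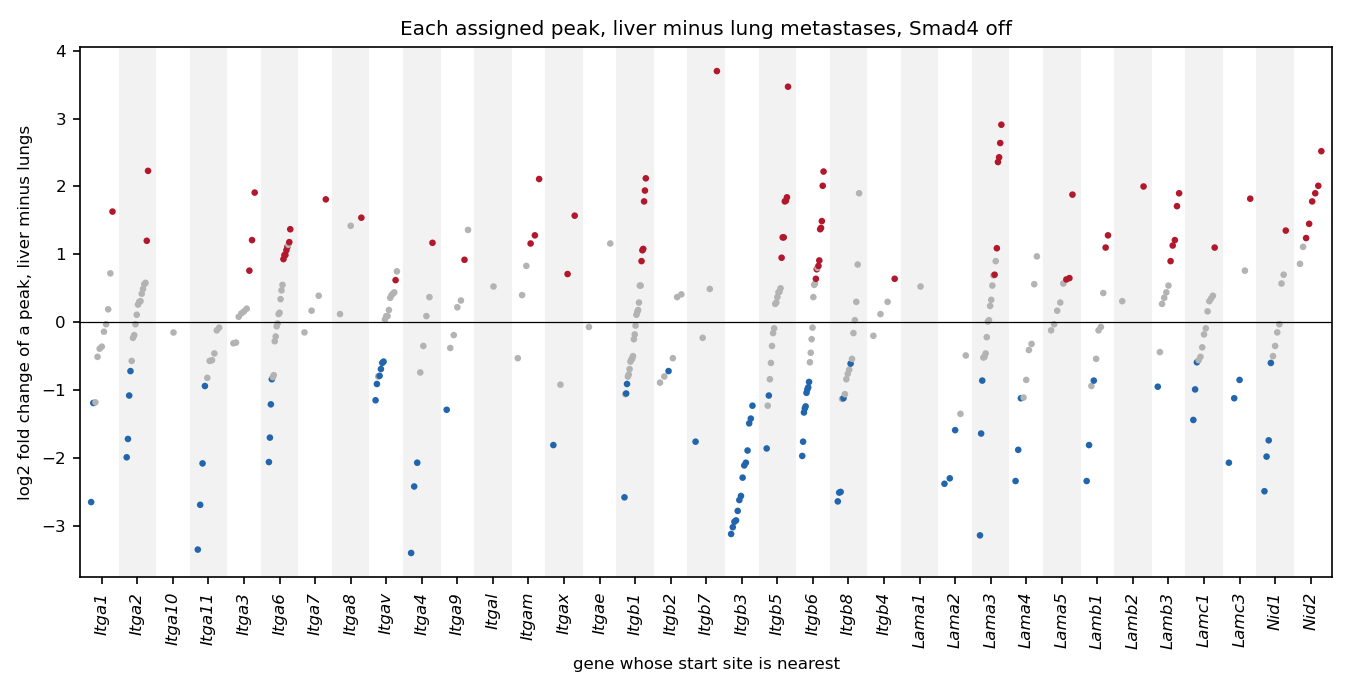
Log2 fold change (liver minus lungs, Smad4 off) of each of the 344 peaks, one column per gene and one point per peak, red where called higher in the liver, blue where called lower and gray where not called. All 14 Itgb3 peaks are blue and below 0, 6 of the 8 Nid2 peaks are red, and long genes such as Itgb6 (9 red and 9 blue), Itga6 and Lama3 hold both colors.

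Of the collagen receptor subunits, Itga11, the fibrillar collagen receptor subunit of fibroblasts, was low in the liver. Its locus (10 peaks) summed to 284 and 286 in Liv, 1728, 813 and 1399 in Lung and 1472, 1630 and 1208 in Panc with Smad4 off. The liver mice lay below all others, and lungs and pancreas overlapped. The log2 fold change was -2.13 ± 0.29 against the lungs (4.39-fold lower, adjusted p = 0.000106, and -1.90 without Lung Smad4 off mouse 1) and -2.32 ± 0.29 against the pancreas (adjusted p = 3.13e-05). It rested on distal peaks. With only peaks within 20 kb of the start site, liver against lungs was -0.91 (adjusted p = 0.101), and the upstream peak shown above (chr9:62624387-62625332, 52967 bp from the start site) held 53.1 and 75.2 counts in Liv against 939, 385 and 776 in Lung. No peak covered the Itga11 start site. In lungs against pancreas the Itga11 locus was not called (-0.19 ± 0.26), while 5 of its 10 peaks were lower and 0 higher (10.7% and 6.59% of all peaks). Fibroblast markers summed to 794 to 816 in Liv, 832 to 1527 in Lung and 1699 to 2241 in Panc with Smad4 off. Lung Smad4 off mouse 1 was the highest lung mouse in both, and the part of such cells at Itga11 was not tested. Itga10, a collagen receptor subunit of cartilage, had 1 peak, with 44.4 and 41.8 counts in Liv, 62.6, 38.0 and 46.5 in Lung and 99.9, 91.1 and 128 in Panc. It was lower than in the pancreas in both the liver (-1.27 ± 0.37, adjusted p = 0.00883) and the lungs (-1.11 ± 0.33, adjusted p = 0.0682). The other collagen receptor subunits, Itga1 and Itga2, had no locus call (-0.23 ± 0.23 and -0.07 ± 0.15 against the lungs). The peak over an Itga1 start site (chr13:115100200-115102784) was assigned to Gm49395 and lay outside the Itga1 sum. It held 1938 and 1761 counts in Liv, 1025, 1408 and 1236 in Lung and 1095, 966 and 1015 in Panc, higher in the liver by 0.61 ± 0.15 against the lungs (adjusted p = 0.00334) and 0.85 ± 0.15 against the pancreas. An Itga2 intron peak (chr13:114875917-114876730) was higher in lung metastases than pancreas tumors, at 209, 82.6 and 245 counts against 54.7, 30.4 and 42.6 (1.94 ± 0.52, adjusted p = 0.0221), and at 38.3 and 61.3 in Liv.

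Itga8 and Itga4 were open mainly in the pancreas tumors. Itga8, the alpha subunit of a nephronectin receptor known from mesenchyme, summed over 3 peaks to 394, 425 and 618 in Panc, 71.6 and 46.0 in Liv and 70.9, 33.7 and 24.1 in Lung with Smad4 off. Every pancreas mouse was above every metastasis, and liver and lungs overlapped. Lungs against pancreas gave 11.8-fold lower values (log2 -3.57 ± 0.50, adjusted p = 0.0034) and liver against pancreas 8.06-fold (-3.01 ± 0.56, adjusted p = 0.000491). Itga4, the fibronectin and VCAM1 receptor subunit, summed to 360, 545 and 447 in Panc, 82.7 and 100 in Liv and 163, 86.9 and 311 in Lung. Its liver values lay below all pancreas values (-2.27 ± 0.37, adjusted p = 0.000186), as did its lung values (-1.43 ± 0.33, adjusted p = 0.0298). Liver against lungs (-0.84, adjusted p = 0.0654) was a call that rested on Lung Smad4 off mouse 3, without which it was -0.38 (adjusted p = 0.281). With a block for mouse number in the lungs, lungs against pancreas kept its call (-1.43, adjusted p = 0.00483). Itga9, the tenascin receptor subunit, was lower in lungs than pancreas (-0.94 ± 0.17, adjusted p = 0.0106), at 218, 226 and 267 against 422, 505 and 443, and its liver values of 292 and 319 gave no call against the pancreas (-0.57 ± 0.19). Of the 15 peaks of Itga4 and Itga9, 12 were lower and 0 higher in liver than pancreas, where 32.3% and 26.2% of all peaks were. The lower ones were 7 of the 8 Itga4 peaks and 5 of the 7 Itga9 peaks. The median log2 fold change of the 15 was -2.65, a value that pools both genes although the Itga9 locus was not called. Fibroblast marker peaks moved in the same direction as Itga8, Itga4 and Lama4, with 5 of 5 lower in liver than pancreas and 3 of 5 lower in lungs than pancreas. Panc restored mouse 3, which had the lowest fibroblast sum of the pancreas mice (1535), was also the lowest pancreas mouse at Itga8 (190) and Lama4 (605), but not at Itga4 (659). Whether such cells contributed was not tested.

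Of the leukocyte integrins, Itgam and Itgax, alpha subunits of myeloid cells, summed to 679 and 595 and to 226 and 312 in Liv, against 507, 392 and 407 and 237, 138 and 111 in Lung. Itgam was called against the pancreas only (1.04 ± 0.15, adjusted p = 5.39e-05), and Itgax against the lungs (0.78 ± 0.28, adjusted p = 0.0249) and the pancreas, calls that edgeR did not make (0.43 and 0.45). None of the 6 Itgam peaks or 4 Itgax peaks had its midpoint inside the gene. The peak over the Itgax start site was lower in liver than pancreas (-1.51 ± 0.47, adjusted p = 0.0113). It held 18.5 and 16.7 counts in Liv, 73.6, 22.8 and 23.3 in Lung and 53.8, 44.7 and 58.3 in Panc. The locus of Itgb2, the shared leukocyte beta subunit, was also lower in liver than pancreas (-0.69 ± 0.15, adjusted p = 0.00107). The 2 leukocyte marker peaks summed to 460 and 796 in Liv, 291 to 420 in Lung and 222 to 291 in Panc. Nearly all of this was Cd68 (means of 615, 351 and 241), while Csf1r was lowest in Liv (12.8, 24.1 and 22.3). Their part in the values of Itgam, Itgax and Itgb2 was not tested. Itgal and Itgae had no called peak with Smad4 off. The largest single increase in the liver was at a peak nearest Itgb7 (chr15:102235288-102236053) that lies over an exon of Rarg, with 156 and 404 counts in Liv, 33.1, 15.2 and 12.1 in Lung and 17.1, 20.5 and 17.6 in Panc (3.70 ± 0.44 against the lungs, adjusted p = 3.54e-05). The Itgb7 promoter peak itself was lower in the liver (-1.76 against the lungs).

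Among the cytoplasmic partners calls also went both ways. Of 18 genes of the adhesion plaque, which link integrins to actin, 2 loci were higher and 2 lower in liver than lung metastases (20.4% and 11.8% of all loci), and 3 were higher and 4 lower than in pancreas tumors (23.8% and 13.0%). Of the kindlin genes, Fermt1, known from epithelia (0.69 ± 0.18), and Fermt3, known from blood cells (1.24 ± 0.29), were higher in liver than lung metastases and the widely expressed Fermt2 was lower (-0.87 ± 0.21), and the parvin gene Parvb had the most negative value (-1.25 ± 0.21, adjusted p = 0.00038). Leukocyte marker peaks were again 460 and 796 in Liv against 291 to 420 in Lung, nearly all at Cd68, while Csf1r was lower in Liv. Their part in the Fermt3 value was not tested. Of 10 hemidesmosome and basement membrane partners, 3 were higher and 0 lower in liver than lungs (20.4% and 11.8% of all loci), namely the laminin receptors Dag1 (0.66 ± 0.09) and Bcam (0.69 ± 0.14) and the proteoglycan Agrn (0.78 ± 0.14). These values, like that of Fermt1, stand beside a median locus that was 0.30 higher in the liver under the deposited scaling. Lungs against pancreas gave 0 higher and 1 lower in each list (2.53% and 3.23% of all loci).

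Peaks over promoters took part in the organ differences. Of the 344 peaks 28 were promoter peaks (midpoint within 1000 bp of a start site), 7 exonic, 185 intronic and 124 intergenic, 205 lay inside the gene they were assigned to, and their median width was 672 bp against 589 bp over all peaks. In liver against lungs 8 promoter peaks were higher and 3 lower, a share called of 39.3% where 26.6% of all promoter peaks were called. In liver against pancreas it was 8 and 9, or 60.7% against 31.3%. Start sites of 24 of the 35 genes were covered by a peak. Those with a peak over the start site that was higher in the liver than in both other organs were Lamb3, Lama3, Itgb6, Nid2, Itga3, Itgb4 and Itga1 (the last at the peak assigned to Gm49395), and those lower than in both were Itgb3 and Itgb8.

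Motif content also differed between the 2 directions. The AP-1 letters stood in the central 300 bases of 10 of the 73 peaks that were higher in liver than lung metastases (13.7%), of 40 of the 83 that were lower (48.2%) and of 34.6% of the 344. Over all peaks the shares were 20.0% of the higher and 53.4% of the lower, so the integrin and laminin peaks followed the table as a whole. The HNF4 letters stood in 5 of 73 higher (6.85%) and 0 of 83 lower peaks, where 3.79% and 1.42% of all such peaks held them. KLF letters stood in 15.1% and 10.8%, RUNX letters in 6.85% and 13.3%, TEAD letters in 26.0% and 22.9%, and SMAD letters in 11.0% and 14.5%. Among all higher and lower peaks the shares were 14.4% and 8.35% (KLF), 7.77% and 14.3% (RUNX), 20.8% and 20.7% (TEAD) and 9.95% and 10.5% (SMAD). FOX, ETS and HNF1 letters were in 4.11% or fewer of the 73 higher and of the 83 lower peaks. These are descriptions of letters, without a test.

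With Smad4 restored, organs again differed in both directions, in other mice. In liver against lungs 61 peaks were higher and 66 lower (17.6% and 18.2% of all peaks), in liver against pancreas 100 and 124 (27.1% and 32.2%), and in lungs against pancreas 51 and 65 (12.8% and 14.9%). Without Liv restored mouse 2 the first count was 50 in all. By locus value 6 were higher and 3 lower in liver than lungs (12.9% and 7.89% of all loci), 9 and 9 in liver against pancreas (22.0% and 13.9%), and 2 and 7 in lungs against pancreas (7.41% and 6.63%). Lamb3 held 3512 and 4517 in Liv, 2380, 2391 and 2062 in Lung and 1800, 1649 and 2041 in Panc (0.81 ± 0.16 against the lungs, adjusted p = 0.00163). Lama3 held 3359 and 4576 in Liv and at most 1927 elsewhere (1.07 ± 0.16 against the lungs). Nid2 held 1584 and 2152 in Liv and 496, 488 and 796 in Lung (1.67 ± 0.33, adjusted p = 0.00217). At each of these the liver mice again lay above all others. Itgb3 was still lower in the liver, with all 14 peaks lower than in either organ, at 1499 and 1097 in Liv against 2732, 3254 and 2879 in Lung (-1.20 ± 0.24, adjusted p = 0.00253), where the Smad4-off value was -2.22. Itga1 (0.82 ± 0.21) and Lama5 (0.81 ± 0.12) were higher in lungs than pancreas in this state.

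Restoration of Smad4 itself changed few of these peaks. In the pancreas 4 of the 344 rose and 7 fell (0.364% and 3.06% of all peaks), in the liver 6 rose and 1 fell (0.462% and 0.0886%), and averaged over organs 19 rose and 6 fell (3.61% and 3.0%). In the lungs 0 were called by limma (0.00366% of all peaks), with 29 at an unadjusted p under 0.05 and 4 called by DESeq2. No locus was called in the pancreas (2.15% of all loci), the liver (0.0561%) or the lungs (0.0112%) by limma, with 4, 3 and 5 loci at an unadjusted p under 0.05, and DESeq2 called 2 loci in the liver. A block for the mouse number in the lungs gave 19 peaks in the pancreas (8 rose and 11 fell). That block rests on an assumption, made from correlations alone, that lung samples sharing a number belong together. Without both samples that stand apart the counts were 20 in the pancreas, 21 in the liver (19 rose and 2 fell) and 44 on average (32 rose and 12 fell). Other changes lowered them. Without Panc Smad4 off mouse 2 there were 0 in the pancreas, without Liv Smad4 off mouse 1 there were 0 in the liver and 13 on average, a GC correction gave 6 in the pancreas and 3 in the liver, and a fit of only the groups compared gave 0 in the liver.

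**Figure D5:**
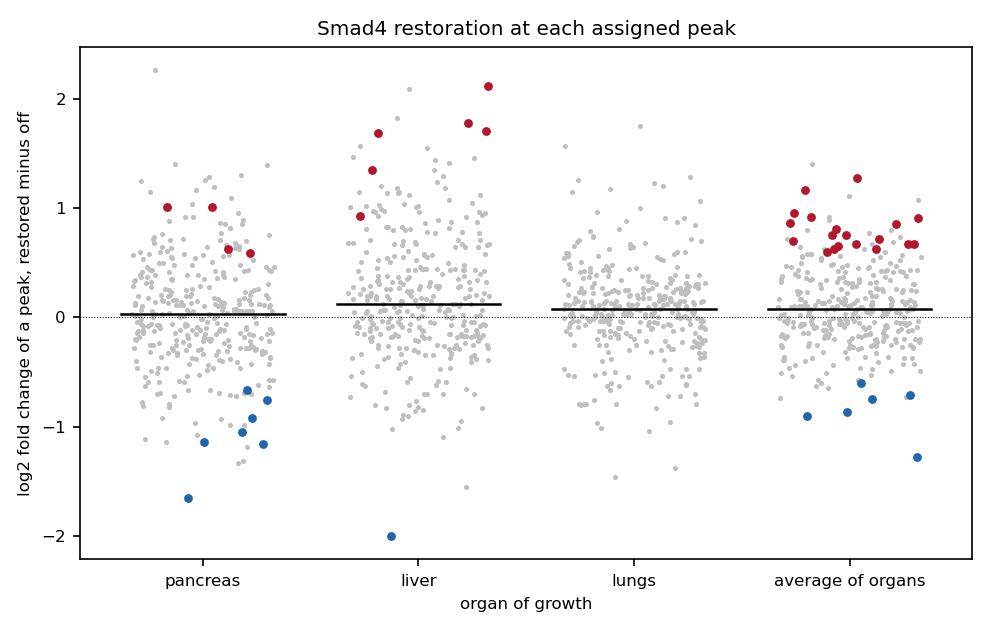
Log2 fold change of each of the 344 peaks on Smad4 restoration in the pancreas, the liver, the lungs and averaged over organs, one point per peak, with called peaks in red (rose) or blue (fell) and a line at the median. The medians lie between 0.03 and 0.12 and the called peaks number 11, 7, 0 and 25.

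The Itgb1 upstream region held the peaks that rose most on average. The peak shown above (chr8:128666424-128667464, 18710 bp upstream of the start site) rose from 469, 553 and 470 counts to 929, 940 and 1146 in Panc (1.01 ± 0.26, adjusted p = 0.0591) and from 53.1 and 96.1 to 289 and 212 in Liv (1.78 ± 0.32, adjusted p = 0.0435). In both organs every restored mouse lay above every Smad4-off mouse. The calls were lost without Panc Smad4 off mouse 2 (1.09, adjusted p = 0.163) and without Liv Smad4 off mouse 1 (1.36, adjusted p = 0.341). In Lung it held 636, 277 and 457 with Smad4 off and 777, 757 and 584 restored, and overlapped. Nearby, the peak at chr8:128663070-128663579 rose on average over organs by 1.27 ± 0.21 (adjusted p = 0.0061), the largest of the called average rises, from 68.3, 88.4 and 90.8 to 172, 162 and 120 in Panc, from 12.3 and 12.5 to 39.6 and 22.3 in Liv and from 20.3, 20.6 and 45.7 to 101, 117 and 67.2 in Lung. The restored mice were above the Smad4-off mice in each organ. The remaining called peak of the region (chr8:128661699-128662490) rose by 0.91 ± 0.18 on average.

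Of the 14 Itgb3 peaks, 4 rose with Smad4 in the liver and 6 on average over organs. All 14 had a positive log2 fold change in the liver, between 0.33 and 2.12, and none of the 4 calls there was made without Liv Smad4 off mouse 1. The intron peak with the largest change (chr11:104640829-104641378) went from 12.3 and 18.1 to 88.5 and 52.8 in Liv (2.12 ± 0.49, adjusted p = 0.0972), and another (chr11:104617724-104619999) from 71.6 and 55.7 to 241 and 179 (1.70 ± 0.27, adjusted p = 0.0350). The restored liver mice lay above the Smad4-off ones at both peaks and below all lung and pancreas mice, except that Lung Smad4 off mouse 2 (44.6) lay below both at the former. The locus value went from 599 and 497 to 1499 and 1097 and was not called (1.23, adjusted p = 0.163). The difference of restoration effects between organs was called at 0 of the 344 peaks for liver minus lungs, liver minus pancreas and lungs minus pancreas (0.0% of all peaks each, limma), with 17, 19 and 32 peaks at an unadjusted p under 0.05. For the contrasts with the pancreas DESeq2 called 1 (liver) and 4 (lungs), and the block for mouse number in the lungs gave 4 for lungs minus pancreas. A rise particular to the liver was therefore not shown.

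Other peaks moved in single organs. The Lamb1 upstream peak shown above (chr12:31255178-31257077) fell from 342, 330 and 258 to 131, 147 and 135 in Panc (-1.16 ± 0.23, adjusted p = 0.0245) without overlap. An intron peak of Itga7 (chr10:128938499-128939398) fell from 79.4, 95.6 and 82.4 to 38.2, 43.3 and 33.7 in Panc (-1.14 ± 0.27, adjusted p = 0.0412), and on average by 0.87 (adjusted p = 0.0108). The Itgb6 promoter fell from 58.9, 96.5 and 63.9 to 45.3, 22.3 and 38.3 in Panc (-1.05 ± 0.31, adjusted p = 0.0925), while an Itgb6 intron peak (chr2:60699684-60701516) rose from 770, 835 and 747 to 1101, 1041 and 1534 in Panc and from 402 and 602 to 846 and 1040 in Liv (0.93 ± 0.20, adjusted p = 0.0854). In Lamc1, 1 intron peak rose (0.59 ± 0.12) and 1 fell (-0.76 ± 0.17) in Panc, beside its level sum. Without Panc Smad4 off mouse 2 none of these pancreas calls was made, at -1.11 for Lamb1 (adjusted p = 0.13), -1.06 for Itga7 (adjusted p = 0.188), and -0.84 and 0.67 for the Itgb6 promoter and intron peaks (adjusted p = 0.35 and 0.187). The rise of the Itgb6 intron peak was also not called in Panc without both samples that stand apart (0.45, adjusted p = 0.102) or in Liv without Liv Smad4 off mouse 1 (0.64, adjusted p = 0.527). A peak 5507 bp upstream of Itgam fell on average by 0.75 (SE 0.17, adjusted p = 0.0223).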

How the data were processed

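ATAC-seq values of mKate2-positive cells from 16 mice in 6 groups were taken from 1 deposited table. Part of the genotype is not reported here. The deposited values are a signal, the normalized count of reads per peak: per the study's methods and the submitters' processing notes the authors checked reads with FastQC 0.11.5, trimmed them (Trim Galore, cutadapt), mapped them with Bowtie2 (mm10), found peaks with MACS2 off the ENCODE blacklist, merged peaks within 500 bp into 1 atlas, counted with featureCounts and divided by DESeq2 size factors. Division by size factors supposes a mostly unchanged set of peaks, and merged atlas peaks can span several sites. A shift of read ends for the transposase or removal of duplicates is not given in the sources used here. The table is called filtered without a stated filter. Column names give doxycycline status, with drug on taken to mean Smad4 off, and lung columns name a day later than the 14 days of the labels. All values were whole multiples of 1 read (100% within 0.01 read), so reads were recovered. The 1 mitochondrial row (1.43% to 3.56% of reads) was left out. Counts limit the precision of low peaks, and the counting error takes reads as independent.

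Peaks were assigned with GENCODE vM21 basic start sites and sequences read from GRCm38.p6, the same build. limma 3.58.1 (trend, robust; R 4.3.3) was fitted to log2(normalized count + 1) of all 136630 nuclear peaks, and to log2(locus sum + 1) of 17816 protein-coding genes, with 6 group means; this scale understates changes of low peaks. Calls used the thresholds of the study (0.58 and an adjusted p of 0.1). P-values measure the spread between mice. The members, gene lists, marker lists and tests were chosen with earlier results of these data known. Every member gene is described, and single peaks are the 3 called peaks per direction of largest change with a mean count of at least 50 and groups without overlap, at most 1 per gene; start-site peaks and a few others (the Itgb1, Itgb3 and Lamc1 peaks past the first 3) were named after their values were seen. Marker genes were read at peaks that cover a start site, a reading chosen after midpoints missed wide merged peaks. The test was checked on simulated data.

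Mouse numbers are shared by groups. Deviations from group means of same-numbered mice correlated by 0.491, 0.124 and 0.214 in the lungs, where the numbers were taken to pair the samples on statistical grounds only, by -0.33, 0.0271 and -0.33 in the pancreas and by 0.0834 in the liver.

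Alternatives were pseudocount 10, a mean count of at least 20, TMM factors, quantile normalization, edgeR 4.0.16, DESeq2 1.42.0, thresholds of 1 and 0.05, only the groups compared, blocks, a GC correction, removal of the median level within 1 Mb, assignment within 20 kb and leaving out each mouse. Alternatives added after seeing the data were a block in the lungs only and leaving out both samples that stand apart.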

Additional observations from a re-analysis of the deposited data

How the results depend on the processing

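Organ counts of peaks stayed within 1.5 times under other scalings, tests and blocks. Restricting assignment to 20 kb left 181 of the 344 peaks, and counts were 84 and 109 for liver against lungs and pancreas and 29 for lungs against pancreas with Smad4 off, 68, 115 and 60 with Smad4 restored, 5 for restoration in the pancreas and 15 on average. Thresholds of 1 and 0.05 gave 74 peaks (liver against lungs) and 66 (lungs against pancreas) with Smad4 restored, 3, 2 and 3 for restoration in the pancreas, in the liver and on average, and 5, 11 and 2 loci with Smad4 off and 5, 10 and 3 restored. DESeq2 gave 24, 15 and 4 peaks for restoration in the pancreas, liver and lungs, 1 and 4 for the interactions of liver and lungs with pancreas, and 2 loci in the liver. Restoration in the pancreas and liver gave 6 and 3 peaks with GC correction and 18 and 4 with quantile normalization, and in the liver 3 with edgeR, 3 with pseudocount 10 and, with only the groups compared, 0 peaks and 4 loci. Pseudocount 10 gave 16 on average. Without both samples that stand apart (added after seeing the data) counts were 20, 21 and 44 peaks and 1 locus in the pancreas and 2 in the liver.

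A block for mouse number in every organ gave 3 peaks for restoration in the liver, and 1 with GC correction. The block in the lungs only, added after seeing the data, gave 19 peaks for restoration in the pancreas and 4 for the interaction of lungs and pancreas. No other count of calls moved past 1.5 times with a block.

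Leaving out 1 mouse at a time gave 124 to 175 peaks (liver against lungs), 185 to 224 (liver against pancreas) and 44 to 75 (lungs against pancreas) with Smad4 off, and 50 to 133, 158 to 235 and 83 to 134 restored. It gave 0 to 20 for restoration in the pancreas, 0 to 13 in the liver, 0 to 1 in the lungs, 13 to 43 on average (13 without Liv Smad4 off mouse 1, 43 without Lung Smad4 off mouse 1) and 0 to 7 for the interaction of lungs and pancreas. Loci ranged from 8 to 13, 15 to 17 and 2 to 7 with Smad4 off, from 7 to 10, 15 to 22 and 6 to 11 restored, and from 0 to 1 and 0 to 2 for restoration in the pancreas and liver. The lowest counts came without Lung Smad4 off mouse 3 (8), Panc Smad4 off mouse 2 (2 loci) and mouse 3 (44) and Liv restored mouse 2 (50).

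The split of loci moved with scaling: for liver against lungs 2 higher and 8 lower with DESeq2, 5 and 7 with TMM factors, 5 and 5 with quantile normalization, 7 and 4 with the level within 1 Mb removed; for liver against pancreas 3 and 12, 6 and 10, 5 and 10, and 7 and 8. Of 71 called locus values 27 were called in every alternative and 44 were lost in at least 1. Removing the level within 1 Mb turned values of Itgb1 (liver against pancreas 0.77 with Smad4 off, 0.60 restored) and of Lama1 (lungs against pancreas 1.43 and 1.26, liver against pancreas 2.26 restored), and assignment within 20 kb turned Lama2 (liver against lungs restored 0.15); the cause was not tested.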
